A study of Mus musculus with 30 samples.

Results

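CGR8 is a mouse embryonic stem cell line, and the comparison described here is its earliest transcriptome under cycloheximide: 3 libraries collected at 1 h against 3 collected at 0 h. They are 6 of the 30 libraries of the series. The others are the same line at 2, 5 and 48 h and the mouse fibroblast line NIH/3T3 at the same times, with 3 replicates (A, B and C) per line and time. Both lines, at all times, are labelled with a ROSA26 SLT knock-in, an abbreviation that the labels do not spell out, so the controls carry it too. The dose of cycloheximide is given as 0.1 µg/mL on every label, also on those of the 0 h libraries. CGR8 cells grew in N2B27 with 2i and LIF, a serum-free medium in which inhibitors of MEK and GSK3 and the cytokine LIF hold stem cells in the naive state. NIH/3T3 cells grew in serum. Nothing in the labels says whether replicates were separate cultures, so p-values measure the spread between these libraries, which may be technical.

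Cycloheximide binds the ribosome and stops the elongation step of translation, so proteins with short half-lives run down. The libraries hold RNA alone, so how far translation was stopped at the labelled dose is not known from them. Immediate-early genes such as Egr1, Fos and Jun need no new protein for their transcription, their mRNAs are short-lived, and they have long been known to accumulate when protein synthesis is blocked. In naive stem cells the FGF4 to MEK to ERK route that feeds many of these genes is the route that the MEK inhibitor of 2i blocks. Bulk RNA cannot tell more RNA per cell from more cells of a type, and counts alone cannot tell faster synthesis from slower decay.

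Library totals were 23.3 to 29.9 M counts at 0 h and 19.3 to 24.3 M at 1 h. Replicate B at 0 h stood apart: its log2 levels correlated at 0.986 to 0.987 with the other 0 h libraries, which correlated at 0.995 with each other, and 9.21% of its counts fell on cytosolic ribosomal protein genes against 7.19 to 7.96% in the other 5 libraries. No pair of replicates agreed within sampling noise (chi-square over degrees of freedom of at least 1.75). The summed level of 10 pluripotency markers was 6114 to 6507 CPM (counts scaled to a common total) at 0 h and 6531 to 6671 CPM at 1 h, against 238 to 366 CPM in NIH/3T3. The 10 fibroblast markers summed to at most 7.27 CPM in CGR8, 4 of them at 0 counts in all 6 libraries, against at least 4739 CPM in NIH/3T3. Summed markers of 2-cell-like cells, mesoderm, neuroectoderm, trophoblast and primed epiblast overlapped between 0 and 1 h. Those of primitive endoderm were 307 to 364 CPM at 0 h, highest in 0 h B, and 291 to 296 CPM at 1 h. Most of this was Sparc, which was not called and stood at 218 to 303 CPM over the 6 libraries. Gata4, Gata6 and Sox17 reached at most 2.02, 0.675 and 0.172 CPM.

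At 1 h, 43 of 15933 genes tested had changed (0.27%), 23 of them higher (0.144%) and 20 lower (0.126%), by edgeR's quasi-likelihood test at a Benjamini-Hochberg adjusted p under 0.05. The test used 1 fit of all 15 CGR8 libraries, and every adjusted p below comes from it unless another comparison is named. Of the 43, 17 (0.107% of the genes tested) had changed at least 2-fold, 14 upwards and 3 downwards. The risers were led by the zinc-finger factor gene Egr1 and held Fos, Jun and Junb of the AP-1 family, the arrestin genes Txnip and Arrdc3, and Hoxa3. Among the fallers were Pik3r2, Rbm10, Ccni, Zfp296, Irf2bp2 and Eef2k, whose kinase slows translation elongation. The transcription factor gene Atf4 and the FGF-ERK genes Fgf4 and Spry4 fell too. Their calls did not hold in every fit with 1 library left out. The 3 libraries at 1 h lay wholly above or below those at 0 h for 4003 genes (25.1%), 1999 above (12.5%) and 2004 below (12.6%), and 1289 genes (8.09%) had an unadjusted p under 0.05.

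How many genes were called depended on the libraries and the tool. With 1 library left out, the count was 26 without 0 h A, 19 without 0 h B, 21 without 0 h C, 20 without 1 h A, 21 without 1 h B and 15 without 1 h C, and 12 genes were called in all 6 of these fits. These 12 are Egr1, Txnip, Fos, Arrdc3, Jun, Hoxa3, Pik3r2, Rbm10, Ccni, Zfp296, Eef2k and Irf2bp2. In contrast, 13 genes lost their call in every such fit: Ccn2, Klf10, Zfp719, Zfp759, Arf2, Ccdc166, Spry4, Sh3rf1, Tekt1, Rfwd3, Gdf15, Zkscan17 and Capn10. When the 3 libraries at 1 h and 0 h A and C were fitted on their own, 900 genes were called, all 43 among them. Each of the 43 kept its direction in all 16 other settings that tested it. The 43 were picked from these same libraries, so the kept directions are no separate support. The upward share of the calls ran from 36.8% without 0 h B to 68.4% with library size alone.

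**Figure D1:**
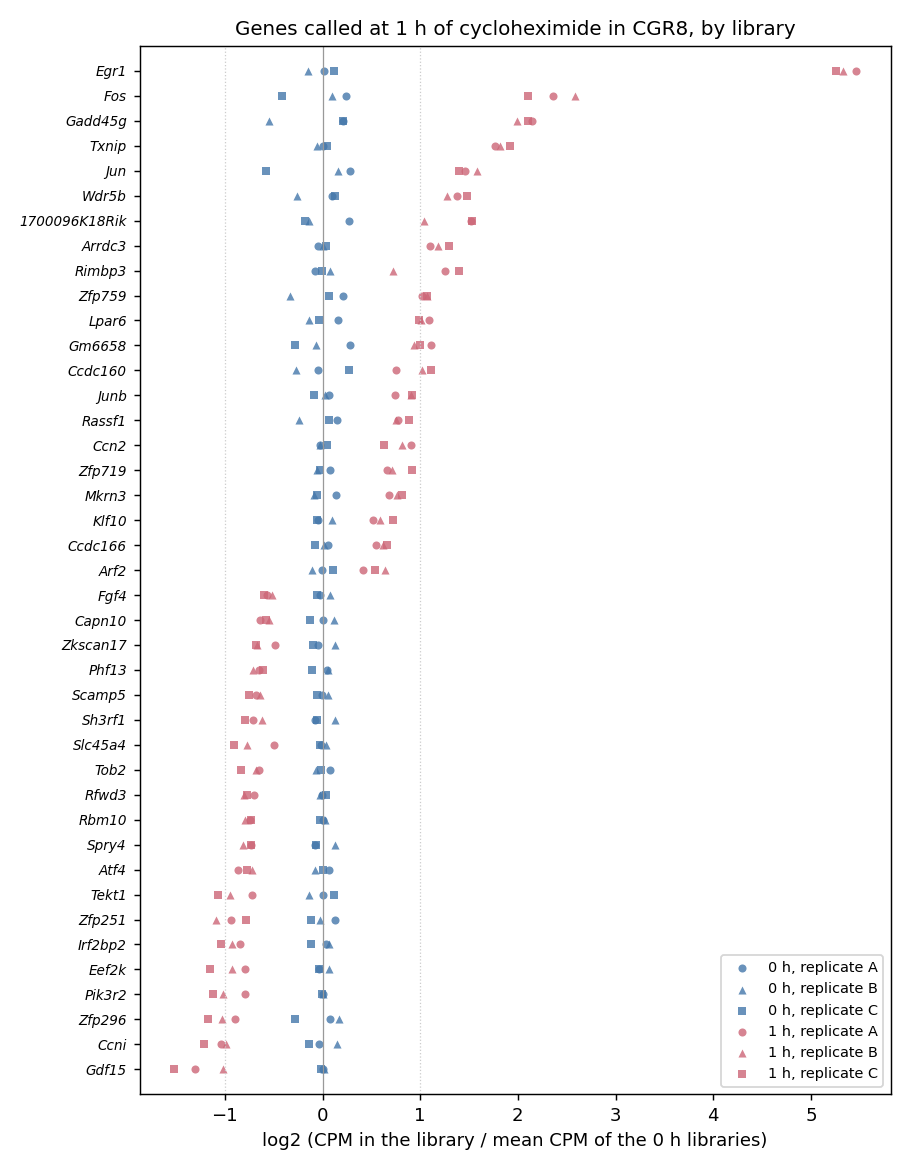
Level of each called gene in each of the 6 libraries, as the log2 of its CPM over the mean CPM of the 0 h libraries. Colours give the time and symbols the replicate, and dotted lines mark a 2-fold change. Hoxa3, with 0 to 2 counts per library at 0 h, is among the genes left out. The 1 h libraries lie apart from the 0 h libraries for every gene shown, and Egr1 stands far to the right of all others.

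Egr1 encodes a zinc-finger transcription factor that growth factors switch on through ERK. Its level was 1.12, 1.01 and 1.21 CPM in 0 h A, B and C and 49.3, 44.8 and 42.7 CPM in 1 h A, B and C. The groups were far apart and the replicates close together, a 40.7-fold rise (log2 5.35, SE 0.20, adjusted p = 1.2e-10). No other gene of its list was called. Egr2, Egr3 and Egr4 had too few counts to be tested, the EGR corepressor genes Nab1 and Nab2 had log2 differences of -0.02 and -0.10, and the nuclear receptor genes Nr4a1 and Nr4a2, also immediate-early genes, -0.27 and -0.34, with adjusted p-values of 0.625 or more. Of the 5 tested members of this list of EGR, NAB and NR4A genes, 1 rose, and their median was -0.10 against -0.0026 for all genes.

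Fos and Jun encode the partners of the classic AP-1 dimer. Fos was at 1.38, 1.25 and 0.879 CPM at 0 h and at 6.03, 7.02 and 5.03 CPM at 1 h, a 5.08-fold rise (log2 2.35, SE 0.25, adjusted p = 0.000405). Jun was at 2.28, 2.10 and 1.26 CPM at 0 h and at 5.15, 5.61 and 4.95 CPM at 1 h, a 2.76-fold rise (log2 1.46, SE 0.22, adjusted p = 0.00607). Neither gene's groups overlapped, although 0 h C was lower than 0 h A and B for both. Junb, at 18.1, 17.6 and 16.3 CPM, went to 29.0, 32.5 and 32.7 CPM (log2 0.85, SE 0.13, adjusted p = 0.00607, called in 4 of the 6 fits with a library left out, and at 0.0343 without 0 h B). These were 3 of the 10 AP-1 genes tested, with a median log2 difference of 0.38 over the 10. The other members were not called: Atf3 differed by 0.50, Fosb by 0.46, Maff by 0.30, Fosl2 by -0.23, Mafg by -0.34 and Jund by -0.46, and Fosl1 had too few counts. Jun overlaps the antisense gene Junos, and Junb overlaps Prdx2 on the opposite strand. The use of strand in the counting is not given in the sources used here, so counts of such pairs may be mixed.

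The proximal promoters of 3 of the risers show what kind of sequence lies ahead of them. They are the 250 bases before the start site in RefSeq on GRCm38.p6, printed in lower case, with matches to 3 motifs in capitals: 2 CACGAG boxes 5 bases apart, of the kind that the glucose-sensing Mondo factors bind, TGACGT, the half-site of CREB and ATF factors, and TGACNTCA, a full site of ATF, CREB and AP-1 factors. Both strands were searched. The motifs were chosen after the sequences and levels had been seen, and a full CREB palindrome matches both of the last patterns.
Txnip, chr3:96557707-96557956, plus strand: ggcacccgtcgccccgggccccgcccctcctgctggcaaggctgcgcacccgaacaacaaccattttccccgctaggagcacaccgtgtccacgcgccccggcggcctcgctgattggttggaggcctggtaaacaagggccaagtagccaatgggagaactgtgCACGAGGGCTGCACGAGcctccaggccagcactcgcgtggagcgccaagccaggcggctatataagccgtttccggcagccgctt
Fos, chr12:85473640-85473889, plus strand: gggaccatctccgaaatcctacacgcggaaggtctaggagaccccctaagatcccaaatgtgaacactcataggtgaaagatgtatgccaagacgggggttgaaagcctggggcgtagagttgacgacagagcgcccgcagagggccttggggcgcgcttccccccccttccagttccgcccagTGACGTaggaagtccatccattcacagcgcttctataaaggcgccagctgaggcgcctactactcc
Jun, chr4:95052223-95052472, minus strand: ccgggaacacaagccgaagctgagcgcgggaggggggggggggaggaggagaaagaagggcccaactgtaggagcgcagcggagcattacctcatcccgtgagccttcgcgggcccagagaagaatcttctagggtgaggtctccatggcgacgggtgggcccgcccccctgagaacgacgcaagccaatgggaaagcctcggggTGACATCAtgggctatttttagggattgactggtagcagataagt
The paired CACGAG boxes of Txnip begin at base -85. The pattern has the boxes and spacing of the Txnip sequence itself, with no mismatch allowed, so a match in Txnip was certain. It occurs in 1 of the 32851 mouse promoters in the RefSeq table (0.00304%). TGACGT, at base -66 of Fos, occurs in 7.51% of them, and TGACNTCA, at base -45 of Jun, in 8.83%. Of the 23 risers, 16 had a promoter in the table, and Egr1, Ccn2, Klf10, Ccdc166, Rimbp3 and Gm6658 were among those without. Of the 16, 3 held TGACNTCA (18.8%), 2 TGACGT (12.5%), 1 the paired boxes, 2 the EGR site GCGNGGGCG (12.5%) and 0 a CArG box, the site of serum response factor. Of the 20 fallers, 16 had a promoter there, and of these 0 held TGACNTCA, 1 TGACGT (6.25%), 3 the EGR site (18.8%) and 0 a CArG box. Among all tested genes with a promoter the shares were 8.26% for TGACNTCA, 12.7% for TGACGT, 12.4% for the EGR site and 1.55% for the CArG box. Such matches are letters in a 300-base window and not evidence of binding. A CArG box farther than 250 bases before the start would not be seen, nor would any of Egr1. The count of 0 does not cover these.

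Txnip and Arrdc3 belong to the alpha-arrestins, adaptor proteins that send membrane proteins such as glucose transporters and receptors to endosomes. Txnip was at 77.9, 74.6 and 80.0 CPM at 0 h and at 264, 273 and 292 CPM at 1 h, a 3.56-fold rise (log2 1.83, SE 0.12, adjusted p = 2.97e-07). Arrdc3 was at 64.2, 66.5 and 67.8 CPM and then at 142, 150 and 162 CPM, a 2.29-fold rise (log2 1.19, SE 0.13, adjusted p = 0.000487). In both genes the replicates of each time lay close together and the times far apart. Their relatives did not pass the test: Arrdc4 differed by 0.09, Arrdc2 by 0.36 and Arrdc1 by -0.04 (log2). The Mondo factor genes Mlxip and Mlxipl, whose proteins are known regulators of Txnip and Arrdc4, differed by -0.10 and 0.21. Txnip overlaps Gm15441, an antisense gene.

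The remaining serum-response genes gave 2 risers among 26 tested. Gadd45g, a growth-arrest and stress gene, was at 1.09, 0.646 and 1.09 CPM at 0 h and at 4.17, 3.75 and 4.05 CPM at 1 h (log2 2.07, SE 0.34, adjusted p = 0.0118). It was called in 2 of the 6 fits with a library left out and not without 0 h B, its lowest library (adjusted p = 0.0859). Ccn2, which encodes the matricellular protein CTGF, went from 12.8, 12.7 and 13.4 CPM to 24.3, 22.8 and 20.1 CPM (log2 0.79, SE 0.14, adjusted p = 0.022, and 0.0599 to 0.146 with a library left out). Both had groups that did not overlap. Over the whole list 17 of 26 differences were positive, the median was 0.28, and 13 members lay above 0 h in all 3 libraries (50%, against 12.5% of all genes), while 6 lay below in all 3 (23.1%, against 12.6%). Near the threshold were Ccn1 (0.52, adjusted p = 0.10), Gadd45a (0.58, adjusted p = 0.10) and Gadd45b (0.51, adjusted p = 0.18). Srf, Rhob and Ier5l differed by 0.02, 0.11 and 0.01, and the 6 that lay below were Ier5 at -0.70 (adjusted p = 0.43), Sik1, Plaur, Plk3, Arc and Plk2. Of 16 tested Kruppel-like factor genes only Klf10, a gene induced early by TGF-beta, was called. It was at 50.5, 55.6 and 50.3 CPM and then at 74.6, 78.1 and 86.0 CPM (log2 0.61, SE 0.11, adjusted p = 0.0291, and 0.0782 to 0.243 with a library left out). The pluripotency members Klf2, Klf4 and Klf5 differed by -0.09, -0.09 and 0.01.

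Of the HOX genes, which pattern the body axis and are all but silent in stem cells, Hoxa3 had 0, 2 and 1 counts at 0 h and 13, 11 and 12 counts at 1 h (adjusted p = 0.00607). No fold is given against so few counts. Hoxa3 overlaps another gene on its own strand and 4 on the other, so its counts are uncertain as to their source.

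The other risers had few counts. Wdr5b, an intronless relative of the histone-methyltransferase subunit gene Wdr5, went from 1.19, 0.929 and 1.21 CPM to 2.89, 2.69 and 3.11 CPM (log2 1.38, adjusted p = 0.00691). Lpar6, a receptor gene for lysophosphatidic acid that lies within Rb1, went from 4.79, 3.92 and 4.19 CPM to 9.17, 8.66 and 8.49 CPM (log2 1.02, adjusted p = 0.00699). Neither group pair overlapped. Rassf1, a tumour suppressor of the Hippo route, went from 8.41, 6.42 and 7.91 CPM to 12.9, 12.8 and 14.0 CPM (log2 0.80, adjusted p = 0.00868). Mkrn3, an imprinted gene of the makorin family, went from 4.30, 3.67 and 3.77 CPM to 6.27, 6.62 and 6.88 CPM (log2 0.75, adjusted p = 0.0154). Rimbp3 stood at 0.835, 0.929 and 0.879 CPM and then at 2.11, 1.46 and 2.32 CPM (log2 1.16, adjusted p = 0.0469). In all of these the 1 h libraries lay above every 0 h library, and 0 h B was the lowest of the 6 for each except Rimbp3. Without 0 h B the adjusted p of these genes lay between 0.0603 and 0.166. Of the 6 fits with a library left out, Wdr5b and Rassf1 were called in 4, Lpar6 in 3, and Mkrn3 and Rimbp3 in 1.

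A further 3 risers carry a coiled-coil or GTPase name. Ccdc160 went from 5.81, 4.97 and 7.24 CPM to 10.1, 12.2 and 12.97 CPM (log2 0.97, adjusted p = 0.022). Ccdc166 went from 7.03, 6.82 and 6.41 CPM to 9.90, 10.4 and 10.7 CPM (log2 0.61, adjusted p = 0.0459). Arf2, a small GTPase gene of the ADP-ribosylation factor family, went from 25.3, 23.6 and 27.4 CPM to 33.97, 39.6 and 36.8 CPM (log2 0.53, adjusted p = 0.044). These were small changes. Of the 6 fits with a library left out, Ccdc160 was called in 2, and Ccdc166 and Arf2 in 0. Without 0 h B the adjusted p was 0.142 to 0.269. The zinc-finger genes Zfp759 (log2 1.05) and Zfp719 (log2 0.77) and the predicted genes 1700096K18Rik and Gm6658 were also among the 23.

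The fallers drew more counts than the risers, with a median at 0 h of 55.6 CPM against 4.30 CPM, values not corrected for length. Over all genes tested it was 12.9 CPM. The 0 h level is part of the fold change by which genes were called, so this contrast is not independent of the calls. Ccni, which encodes the atypical cyclin I, was at 89.5, 102 and 83.5 CPM at 0 h and at 44.5, 46.1 and 39.4 CPM at 1 h, a 2.11-fold fall (log2 -1.08, SE 0.14, adjusted p = 0.00141). Pik3r2, the gene of a regulatory subunit of PI3 kinase, was at 63.9, 64.2 and 63.4 CPM and then at 36.9, 31.5 and 29.4 CPM (log2 -0.97, SE 0.11, adjusted p = 0.000821). Its 0 h libraries were nearly level, and it overlaps a noncoding gene on the other strand. No other of the 10 tested PI3-kinase subunit and IRS genes was called, and none of the other cyclin and CDK-inhibitor genes (1 of 18 called).

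Eef2k was at 40.5, 43.6 and 40.5 CPM at 0 h and at 24.0, 21.8 and 18.7 CPM at 1 h, a 1.93-fold fall (log2 -0.95, SE 0.13, adjusted p = 0.00267). Its kinase phosphorylates the elongation factor EEF2, the translocase of the step that cycloheximide stops. Irf2bp2, a transcriptional corepressor gene, was at 24.1, 24.6 and 21.6 CPM and then at 13.1, 12.3 and 11.4 CPM (log2 -0.93, SE 0.13, adjusted p = 0.00267). Rbm10, a splicing regulator gene, was at 131, 132 and 128 CPM and then at 78.0, 75.0 and 78.6 CPM (log2 -0.76, SE 0.09, adjusted p = 0.0013). The groups of all 3 genes were well apart with every library in. Rbm10 overlaps Ndufb11 on the opposite strand, a gene whose counts could reach it if strand was not used.

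Naive stem cells make FGF4, answer it through ERK, and restrain the answer through Sprouty proteins. Fgf4 was at 231, 246 and 225 CPM at 0 h and at 157, 164 and 155 CPM at 1 h, a 1.47-fold fall (log2 -0.56, SE 0.09, adjusted p = 0.00691, called in 4 of the 6 fits with a library left out, with an adjusted p of up to 0.0823). Spry4 was at 104, 120 and 105 CPM and then at 65.7, 62.4 and 66.1 CPM (log2 -0.76, SE 0.14, adjusted p = 0.0308, and 0.0842 to 0.211 with a library left out). Both pairs of groups were apart. Spry4 was the only called gene among 15 ERK feedback genes, whose median was -0.01, and 0.04 with library size alone as the scale: Spry2 differed by -0.01, Dusp6 by 0.14, Dusp1 by -0.02, Spry1 by -0.41 and Dusp7 by -0.46. Zfp296, a zinc-finger gene of stem cells known to promote reprogramming, was at 60.1, 64.2 and 47.0 CPM and then at 30.7, 28.0 and 25.4 CPM (log2 -1.03, SE 0.14, adjusted p = 0.00228). Zfp296 overlaps Gemin7 on the other strand.

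Fgf4 and Zfp296 were the 2 called among 12 stem cell marker genes, both lower, with a median of -0.17. Tdgf1, at 0.33 (adjusted p = 0.44), lay above 0 h in all 3 libraries. The core factors of naive pluripotency showed no call by edgeR among 12 genes tested, 3 with an unadjusted p under 0.05, and a median of 0.12. Sox2 was at 281, 251 and 265 CPM at 0 h and at 324, 325 and 314 CPM at 1 h, above in all libraries but not called (log2 0.27, adjusted p = 0.37). Nanog differed by 0.25, Zfp42 by 0.12, Pou5f1 by -0.07 and Esrrb by -0.15. Of the 12, 6 lay above 0 h in every library (50%, against 12.5% of all genes) and Esrrb alone below.

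Atf4 encodes the factor of the integrated stress response that raises amino acid synthesis and transport genes. It was at 149, 136 and 144 CPM at 0 h and at 78.5, 86.5 and 83.5 CPM at 1 h, a 1.73-fold fall (log2 -0.79, SE 0.14, adjusted p = 0.0155). It was called in 1 of the 6 fits with a library left out, that without 0 h B, and the adjusted p ranged from 0.0392 to 0.119. Gdf15, a stress cytokine gene known as a target of ATF4 and p53, was at 5.11, 5.13 and 5.03 CPM and then at 2.06, 2.52 and 1.77 CPM, a 2.41-fold fall (log2 -1.27, SE 0.25, adjusted p = 0.0459, and 0.117 to 0.335 with a library left out). The groups of both were apart. These were the 2 called of 30 tested genes in a list of ATF4 and its targets, 26 of which had a negative difference. The list's median was -0.17, and 14 members lay below 0 h in every library (46.7%, against 12.6% of all genes). Chac1 differed by -0.67, Ddit3 by -0.52, Sesn2 by -0.46 and Slc7a5 by -0.37, with adjusted p-values of 0.27 or more. The serine and asparagine synthesis genes Phgdh, Psat1 and Asns differed by -0.17, -0.16 and -0.13, and Slc3a2 went the other way at 0.34. Without 0 h B the median was -0.13.

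The remaining fallers include 1 of 11 tested regulators of mRNA decay. Tob2, whose protein recruits the CCR4-NOT deadenylase, was at 19.6, 17.7 and 18.3 CPM and then at 11.8, 11.6 and 10.4 CPM (log2 -0.72, SE 0.12, adjusted p = 0.0117). It was called in 1 of the 6 fits with a library left out, that without 0 h B, and the adjusted p ranged from 0.0356 to 0.125. Of the others on that list, the endonuclease gene Zc3h12a differed by -0.74 and Zfp36l2, which codes for an AU-rich element binding protein, by -0.57. Zfp36 and Zfp36l1 of the same family differed by 0.23 and 0.28, and none of these 4 was called. The median over the 11 was -0.15.

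Rfwd3, a ubiquitin ligase gene of the DNA damage response, went from 270, 266 and 278 CPM to 168, 156 and 159 CPM (log2 -0.76, adjusted p = 0.0407). Slc45a4, of the solute carrier genes, went from 53.7, 55.8 and 53.2 CPM to 38.4, 31.6 and 28.9 CPM (log2 -0.72, adjusted p = 0.0203). Scamp5, a secretory carrier membrane protein gene, went from 71.6, 74.5 and 69.3 CPM to 44.9, 46.2 and 42.5 CPM (log2 -0.69, adjusted p = 0.00607). In each the times lay apart, and in Rfwd3 and Scamp5 the replicates of a time were close. The 1 h libraries of Slc45a4 spread from 28.9 to 38.4 CPM. Phf13, a PHD-finger gene, went from 32.5, 32.6 and 29.2 CPM to 20.1, 19.2 and 20.7 CPM (log2 -0.65, adjusted p = 0.00607). Sh3rf1, which codes for a scaffold of JNK signalling, went from 22.2, 25.5 and 22.4 CPM to 14.3, 15.2 and 13.4 CPM (log2 -0.71, adjusted p = 0.024). Zfp251 went from 15.9, 14.3 and 13.4 CPM to 7.60, 6.84 and 8.45 CPM (log2 -0.93, adjusted p = 0.00607). Scamp5, Phf13 and Zfp251 were called in 5 of the 6 fits with a library left out, Slc45a4 in 1, and Rfwd3 and Sh3rf1 in 0. Without 0 h B the adjusted p of the last 3 was 0.106 to 0.13. Smaller or less abundant were the falls of Tekt1, a tektin gene of cilia (log2 -0.91), Zkscan17 (-0.61) and the calpain gene Capn10 (-0.59).

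Some genes with large differences missed the threshold. Hist1h1c, a linker histone gene, was at 3.73, 2.38 and 3.14 CPM at 0 h and at 5.49, 5.61 and 6.25 CPM at 1 h (log2 0.90, adjusted p = 0.0544). Lefty2, which codes for an inhibitor of Nodal signalling, was at 6.84, 7.47 and 7.16 CPM and then at 3.19, 4.59 and 3.03 CPM (log2 -0.99, adjusted p = 0.064). Eif5, the gene of a GTPase activator in translation initiation, was at 414, 356 and 457 CPM and then at 207, 207 and 194 CPM (log2 -1.01, adjusted p = 0.097). All 3 had groups that did not overlap. Also apart were Evx1 (-0.79), Id1 (-0.78) and Mir6236 (-0.94) downwards, and Taf1a (0.90), Jrkl (0.95), Taf1d (0.97), Zfp758 (1.09) and Zfas1 (1.13) upwards. For Evx1, Id1 and Mir6236 the highest library was 0 h B. It stood out most for Mir6236, at 18.4, 33.9 and 19.3 CPM in 0 h A, B and C. For each of these 5 upward genes 0 h B was the lowest library: Zfas1, a snoRNA host gene, had 49.9, 12.1 and 50.5 CPM at 0 h and 75.5, 81.9 and 88.3 CPM at 1 h.

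Gene groups that share a process mostly lay close to 0, and several were set by 0 h B. The 15 snoRNA host genes had a median of 0.37 with 13 positive and 0 called, and their median log2 level relative to the mean of the 0 h libraries was -0.89 in 0 h B against 0.44 and 0.40 in 0 h A and C. Without 0 h B the median was 0.13. Of these genes, as of the ribosomal, proteasome, respiratory and SR protein genes that follow, 0 had an unadjusted p under 0.05. The 85 cytosolic ribosomal protein genes had a median of -0.13 with 73 negative and 0 called by edgeR, and a median of 0.0022 without 0 h B. Proteasome subunits (37 genes, median -0.11) and nuclear-encoded respiratory chain subunits (78 genes, median -0.10), 0 called, moved to 0.0085 and -0.02 without that library. By contrast, 36 tested replication-dependent histone genes had a median of 0.35 with 29 positive, 0 called and 9 with an unadjusted p under 0.05 (8 of them higher), and 0.45 without 0 h B. Their mRNAs end in a stem-loop in place of a poly(A) tail, and the kit's label names mRNA, so only a part of them may have been read. The 19 genes for SR splicing proteins and their CLK kinases had a median of 0.17 with 16 positive and 0 called, and 0.04 with the trends of GC and length removed.

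**Figure D2:**
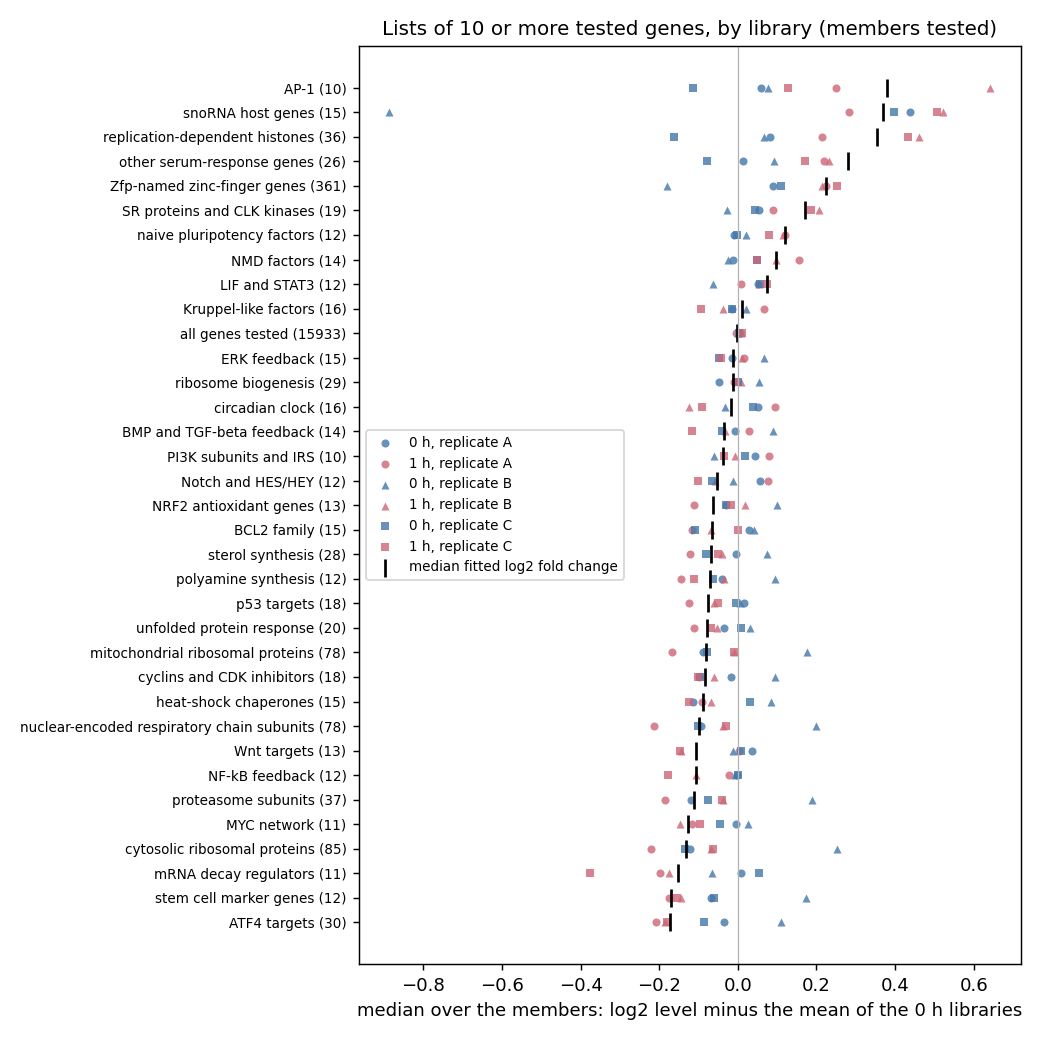
Median over the members of each list of 10 or more tested genes, in each of the 6 libraries, as log2 level minus the mean of the 0 h libraries. Black bars give the median fitted log2 fold change, and the number of members tested stands in brackets. All genes tested lie at about 0, the ATF4 targets and stem cell marker genes have the lowest fitted medians, and the 0 h replicate B (blue triangle) is far from A and C for the snoRNA host genes.

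Zinc-finger genes with a symbol starting in Zfp, many of which encode KRAB repressors that bind transposable elements, lay mostly above 0. Of 361 tested, 279 had a positive difference and 160 lay above 0 h in every library (44.3%, against 12.5% of all genes), with a median of 0.22 that was 0.12 without 0 h B and 0.11 with the trends of GC and length removed. Of the 361, 4 were called, Zfp759 and Zfp719 higher and Zfp296 and Zfp251 lower, beside 0.27% called over all genes tested. The GC content of transcripts moved with the same result. Over quintiles of protein-coding genes by GC of the longest transcript, the median log2 difference went from 0.13 in the lowest through 0.02, -0.04 and -0.08 to -0.13 in the highest. The mean GC of counted genes was 49.18, 49.53 and 49.02% at 0 h and 48.95, 48.87 and 48.87% at 1 h (exact two-sided permutation test, p = 0.1, the smallest that 3 against 3 allows).

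Within the quintile of lowest GC, 184 Zfp genes had a median of 0.38, and 125 (67.9%) lay above 0 h in every library. The other 2425 genes of that quintile had a median of 0.12, and 24.5% lay above. By library, the median of these Zfp genes was 0.15, -0.30 and 0.17 in 0 h A, B and C and 0.37, 0.40 and 0.46 in 1 h A, B and C, relative to the 0 h mean. The 1 h libraries were thus above each 0 h library, and 0 h B was low. Under these settings the median of all genes was -0.0059 without 0 h B and -0.04 with the trends removed. In NIH/3T3 at 1 h, 175 of the low-GC Zfp genes were tested, with a median of 0.24 against 0.13 for the other genes of the quintile. The part of GC content in these values was not tested further.

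**Figure D3:**
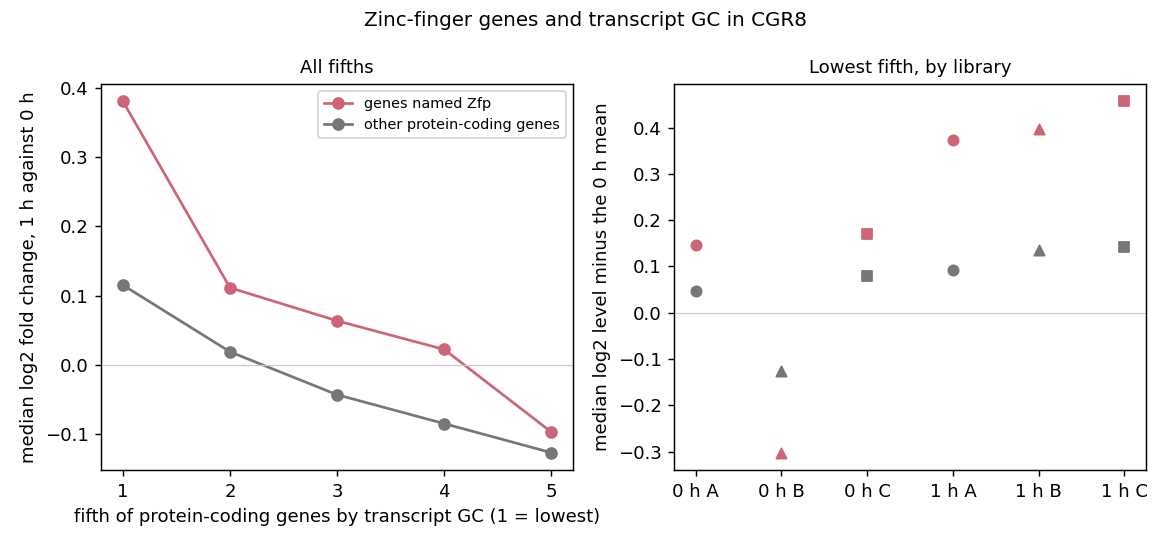
Left, median log2 fold change at 1 h in quintiles of protein-coding genes by GC of the longest transcript, for genes named Zfp and for all others. Right, the median level of the lowest quintile in each library, as log2 minus the mean of the 0 h libraries, with the same colours. Both sets decline with GC, the Zfp genes lie higher, and 0 h replicate B lies below the other 5 libraries.

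In GENCODE M21, with exons merged over all transcripts of a gene, the 23 risers had a median of 3 exons and spanned a median of 4235 bases, and 8 of them (34.8%) had a single exon, against 12.8% of all tested genes. The 20 fallers had a median of 8.5 exons and spanned 17799 bases, and 1 of them, Atf4, had its transcripts merge into a single exon (5%). All tested genes had a median of 8 exons. Among 387 tested protein-coding genes with a single exon, 6 rose (1.55%) and 1 fell (0.258%), against 0.144% and 0.126% of all genes, and 21.4% lay above 0 h in every library and 8.27% below, against 12.5% and 12.6%. The share of all counts on single-exon genes was 1.51% ± 0.021 at 0 h and 1.60% ± 0.039 at 1 h, and that on mitochondrially encoded genes 0.508% ± 0.071 and 0.592% ± 0.054 (SD, n = 3, groups that did not overlap, exact two-sided permutation p = 0.1 each, the smallest possible). The single-exon share was taken over protein-coding genes, and mitochondrially encoded ones such as mt-Nd6 are among them. The single-exon share rose by 0.0859 and the mitochondrial share by 0.0845 percentage points. Whether single-exon genes of the nucleus rose in share was not tested. The pentamer AUUUA, the core of AU-rich decay elements, occurred in the 3' UTR of 17 of 20 risers with a model (85%), of 15 of 19 fallers (78.9%) and of 71.9% of all tested genes. Fos and Jun held 4 copies each, Egr1 2 and Txnip 0.

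The fibroblast libraries are independent of the calls in CGR8, so they allow a test of the same genes. In NIH/3T3 at 1 h, 102 of 13941 genes were called (0.732%), 91 higher (0.653%) and 11 lower (0.0789%). Of the 23 CGR8 risers, 19 were tested there, 10 were called higher, 17 had a positive difference and the median was 0.74. Of the 20 fallers, 17 were tested, 4 were called lower, 13 had a negative difference and the median was -0.28. Over all 12369 genes tested in both lines, 6872 had a positive difference in NIH/3T3 and 5497 a negative one, with a median of 0.023. The 10 risers in both lines were Egr1, Fos, Jun, Junb, Txnip, Arrdc3, Gadd45g, Ccn2, Klf10 and Zfp719, and the 4 fallers in both were Pik3r2, Rbm10, Slc45a4 and Zfp251. Replicate C of NIH/3T3 at 1 h stood apart (correlations of 0.985 and 0.982 with A and B, which correlated at 0.996). Without it 475 genes were called, 430 higher (3.01%) and 45 lower (0.315%), with 11 of the risers and 6 of the fallers among them. With each other NIH/3T3 library of 0 and 1 h left out in turn, 10 or 11 of the risers and 2 to 4 of the fallers were called.

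Txnip in NIH/3T3 was at 20.7, 19.4 and 24.4 CPM at 0 h and at 104, 109 and 73.1 CPM at 1 h, a log2 change of 2.15 against 1.83 in CGR8. Arrdc3 changed by 1.27 against 1.19, and Pik3r2 by -0.91 against -0.97. Fos changed by 3.67 (SE 0.23) against 2.35 (SE 0.25), a difference of -1.30 that was not called in a model of all 30 libraries (SE 0.36, adjusted p = 0.376). For most called genes the lines could not be told apart by this test.

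The difference itself was called for 28 of 17549 genes (0.16%), 8 of which are among the 43. Egr1 started higher in NIH/3T3, at 125, 108 and 118 CPM, reached 587, 762 and 399 CPM, and rose by 3.06 less on the log2 scale than in CGR8 (SE 0.27, adjusted p = 1.54e-07). Ccni, at 132, 129 and 122 CPM and then 116, 118 and 136 CPM in NIH/3T3, did not pass the test there (log2 -0.05), and the difference was -1.003 (adjusted p = 0.00226). Irf2bp2 differed by -1.04 between the lines, Atf4 by -0.95 and Spry4 by -1.17. In NIH/3T3 these 3 had log2 values of 0.13, 0.19 and 0.44, none called. Lpar6 differed upwards by 1.04, as did Hoxa3 from too few counts for a size, and Klf10, which rose in both lines, by -0.80. Of these 8 differences 6 were called in all 12 fits that left out 1 library of 0 or 1 h, Lpar6 in 9 and Klf10 in 2.

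**Figure D4:**
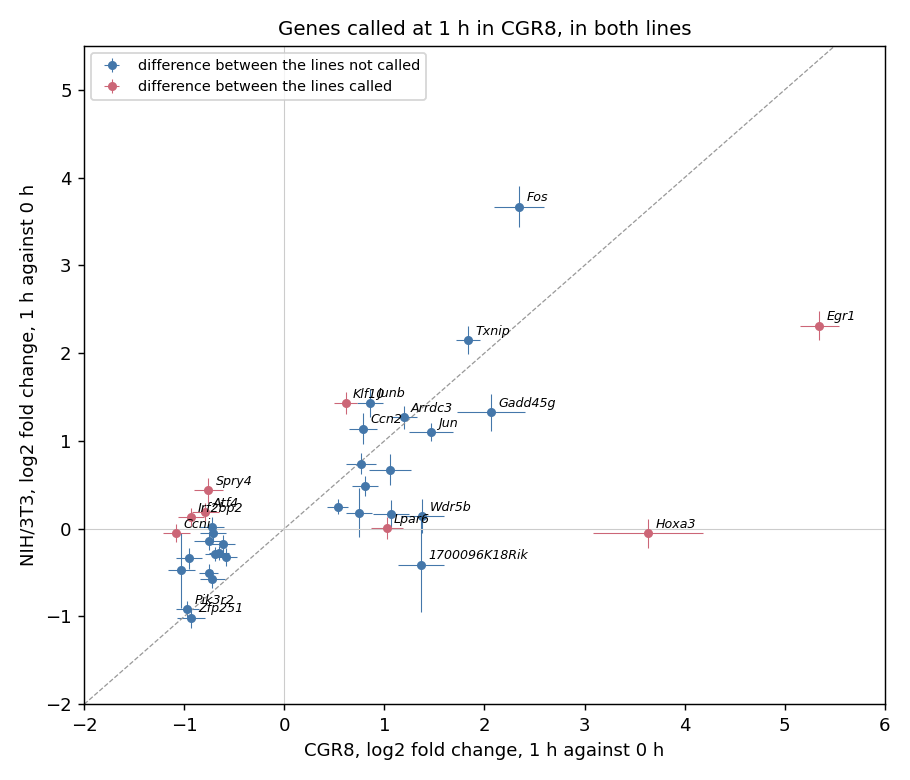
Log2 fold change at 1 h against 0 h in CGR8 (horizontal) and NIH/3T3 (vertical) for the 36 called genes that were tested in both lines, with standard errors. Red marks the 8 genes whose difference between the lines was called, and the dashed line marks equal change. Txnip, Arrdc3 and Pik3r2 lie near the line, Egr1, Hoxa3 and Lpar6 to the right of it, and Klf10, Spry4, Atf4, Irf2bp2 and Ccni above it.

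The later CGR8 libraries show where these levels went. Comparisons of 2, 5 and 48 h with 0 h would share their 0 h libraries with the 1 h comparison, so only levels are given. Junb had a mean of 31.4 CPM at 1 h, 14.3 CPM at 2 h and 30.3 CPM at 5 h. Egr1 had means of 45.6, 23.1, 0.424 and 0.899 CPM at 1, 2, 5 and 48 h, and Fos had 6.03, 2.34, 0.957 and 0.760 CPM. Txnip stayed near 328 and 260 CPM at 2 and 5 h and was at 97.0 CPM at 48 h. Zfp296 was at 12.8 CPM at 2 h and at 94.7 and 129 CPM at 5 and 48 h, and Fgf4 at 133, 182 and 239 CPM.

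Between 1 and 2 h, 1050 of 15933 genes changed (6.59%), 2.71% higher and 3.88% lower. Egr1 (log2 -0.99, adjusted p = 0.00477), Fos (-1.36, adjusted p = 0.0091) and Junb (-1.14, adjusted p = 0.00126) fell between these times, Ccdc160 and Gm6658 rose, and Zfp296 (-1.13), Slc45a4 (-0.89), Pik3r2 (-0.70) and Ccni (-0.67) fell. This comparison shares the 1 h libraries with the calls at 1 h, so the directions of both are not independent. It hangs on single libraries as well: with 1 of the 9 libraries of 0, 1 and 2 h left out, the count moved by over 1.5 times for each except 0 h B, from 26 without 1 h A and 28 without 2 h C to 3340 without 2 h B.

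**Figure D5:**
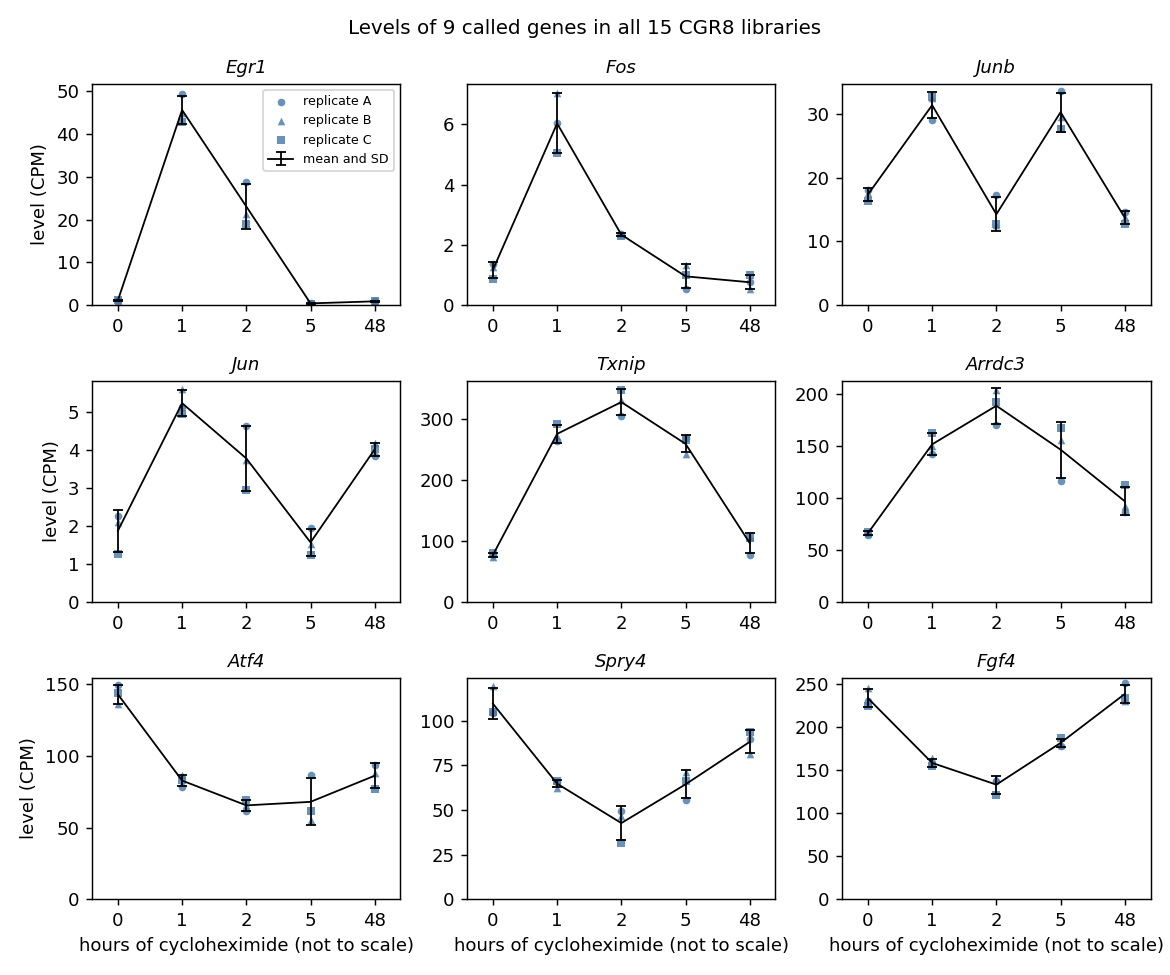
Level in CPM of 9 called genes in all 15 CGR8 libraries at 0, 1, 2, 5 and 48 h, with points for replicates A, B and C and the mean and SD in black. The time axis is not to scale. Egr1 and Fos peak at 1 h, Txnip and Arrdc3 have their highest mean at 2 h, and Atf4, Spry4 and Fgf4 have their lowest mean at 2 h.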

How the data were processed

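RNA was measured in 30 libraries of NIH/3T3 and CGR8 cells. The authors deposited whole-number read counts per gene, 1 column per library, as read from the table itself. The submitters' processing notes name STAR, DESeq2 and the build GRCm39, without versions or roles; the counting tool, its use of strand and the annotation release are not given in the sources used here. Per the labels, the kit was a stranded mRNA kit with ligated adapters. The number of sample columns not used is 0.

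Symbols were matched by Ensembl identifier without version (51880 of 57186, 90.7%). Gene models, GC, exons, overlaps and 3' UTRs come from GENCODE M21 on GRCm38, and promoters from RefSeq on GRCm38.p6; no coordinates of the deposited table are used.

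Tests used edgeR 4.0.16 under R 4.3.3: 1 quasi-likelihood fit of the 15 CGR8 libraries with a coefficient per time, filterByExpr (minimum count 10, minimum total 15), TMM factors, and Benjamini-Hochberg adjustment over all genes tested. The same fit was made for NIH/3T3, and 1 model of all 30 libraries gave the differences between lines. The standard error is the log2 fold change over the square root of F. CPM use TMM-scaled totals, log2 CPM a prior count of 2, and marker sums library totals. Precision follows depth: totals of 19.3 to 29.9 M counts, with low-count genes least precise. Reads were not counted as molecules, so counts overstate it.

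Named are the called genes, most of them with levels where the higher group mean was at least 1 CPM. Of some lists the largest difference among members of at least 5 CPM is named as well. Named too are the 5 largest rises and falls that were not called, did not overlap and reached 5 CPM. Several lists, such as those of Wnt targets and Notch genes, were also examined but are not described. Predicted genes are only named. A called gene that falls under this rule is not reported here. List members beside these were named after their values were seen. The comparison, the 38 lists and 8 marker lists were chosen with earlier results of these data known, and overlap: Gdf15 is on 2 lists. Alternatives were RLE factors, library size alone, DESeq2 1.42.0, voom with sample quality weights (limma 3.58.1), no filter, a mean of at least 5 CPM, the 6 libraries alone, a replicate block, and leaving out each library in turn. Removal of GC and length trends, 0 h B left out of the 6 libraries, and fits without single NIH/3T3 or 2 h libraries were added after seeing the data. The tests were tried on simulated counts.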

Additional observations from a re-analysis of the deposited data

Results flagged for a closer look

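The change at 1 h differed between the lines, by the test of that difference in the model of all 30 libraries, for 11 of the named genes. Upward differences (CGR8 minus NIH/3T3, log2) were those of Egr1 at 3.06, Hoxa3 at 3.71 and Lpar6 at 1.04. The size for Hoxa3 is not reliable: it rests on 0 to 2 counts per CGR8 library at 0 h, and ranged from 3.07 to 4.59 with single libraries left out. Downward differences were those of Ccni at -1.003, Irf2bp2 at -1.04, Atf4 at -0.95, Klf10 at -0.80 and Spry4 at -1.17.

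A further 3 genes, not called in CGR8, also differed. Myc, the growth regulator gene, was at 62.7, 64.5 and 64.3 CPM at 0 h and at 49.8, 51.1 and 50.5 CPM at 1 h in CGR8, and at 264, 244 and 284 CPM and then 477, 524 and 408 CPM in NIH/3T3, a difference of -1.15 (adjusted p = 0.000362). Id1, a BMP target, differed by -1.32 (adjusted p = 0.00309): CGR8 went from 6.94, 8.07 and 6.32 CPM to 4.41, 4.195 and 3.85 CPM, and NIH/3T3 from 89.2, 106 and 107 CPM to 155, 142 and 151 CPM. Nr1d1, the clock gene of REV-ERB alpha, differed by -1.14 (adjusted p = 0.00458). In these 3 genes all CGR8 libraries at 1 h lay below those at 0 h and all NIH/3T3 libraries at 1 h above. Without single libraries of 0 or 1 h, the 3 differences were called in 12 of 12 fits each. The lines also differ in medium, which cannot be told apart from the line.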

How the results depend on the processing

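The 43 calls became 132 with DESeq2, 1044 with voom and sample quality weights, 202 with no filter, 65 with the 6 libraries alone, 95 with GC and length trends removed and 900 with the 6 libraries alone and 0 h B left out. They were 15 to 26 with each library left out. Of the calls 68.4% were upward with library size alone, which moved the median of all genes to 0.05, against 53.5%. The 17 calls of at least 2-fold became 30 with DESeq2, 122 with voom, 57 with no filter, 6 at a mean of at least 5 CPM and 46 with the 6 libraries without 0 h B, and 7 to 14 with each library left out. Genes whose groups did not overlap numbered 5054 to 6081 with a library left out. The 1050 calls between 1 and 2 h became 2541 with DESeq2, 2114 with voom, 2443 with no filter, 1817 at 5 CPM, 337 with the replicate block and 674 with GC and length trends removed, and 26 to 3340 with each library left out. The 28 differences between the lines became 259 with voom, 44 with no filter and 43 with GC and length trends removed, and 22 to 37 with each library left out. The causes were not tested, beyond the fewer libraries or genes that an alternative uses. Between 0 and 1 h, deviations from the group means correlated at 0.07 for A, 0.05 for B and -0.01 for C. Unlike letters gave -0.07 to 0.04. With 3 libraries per group, such values cannot show whether the letters pair the libraries. With the replicate block 37 genes were called. mt-Nd6 turned to -0.12 with GC and length trends removed, and Ubb to 0.0069 with voom and 0.0039 with the 6 libraries without 0 h B. The AP-1 median was -0.31 at a mean of at least 5 CPM, where fewer members were tested. Medians of the ribosomal protein and proteasome lists changed sign in 3 of 16 alternatives. Depth limits genes such as Hoxa3, with 11 to 13 counts per library at 1 h.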
